A study of Mus musculus with 32 samples.

Results

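The genes described here are 10 of the 55291 gene symbols in the count tables, chosen by name as genes that astrocytes switch on or raise as they form and mature. They are Gfap, Aqp4, S100b, Aldh1l1, Aldoc, Sparcl1, Clu, Slc1a2, Gja1 and Nfia, and all 10 symbols were present in the table of every stage. These genes and the other lists below were chosen with earlier results of these data known. Messenger RNA was sequenced from brains of C57BL/6J mice that were Dhcr7+/+ (WT) or Dhcr7-/- (KO). Embryonic brains came from E12.5, E14.5 and E16.5, where E counts the days of gestation, and newborn brains from postnatal day 0 (PND0), with 4 libraries in each of the 8 groups and 32 libraries in all. Dhcr7 encodes the enzyme that makes cholesterol from 7-dehydrocholesterol, and its loss models Smith-Lemli-Opitz syndrome. The labels name no animal, litter or sex for a library, so that p-values measure the spread between these libraries only.

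Astrocytes arise from radial glia, the neural stem cells of the embryonic brain, after these cells have made most of the neurons. The switch uses NFI transcription factors and Sox9, Notch signalling, and cytokine signals that run through gp130, JAK kinases and STAT3. Radial glia already carry some transporters and enzymes that astrocytes keep, whereas the filament protein GFAP and the water channel aquaporin-4 mark later steps. In whole tissue, fewer cells of a type and less RNA per cell cannot be told apart.

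The libraries held between 13.87 and 28.32 M counts each. Levels are given as CPM, the counts of a gene in each 1 M counts of a library whose size was scaled by the TMM method. Dhcr7 itself ran from 58.8 to 104 CPM in the WT libraries and from 11.7 to 26.6 CPM in the KO libraries, so the groups did not overlap at any stage. Its log2 fold change in KO was -1.64 at E12.5 (SE 0.15, edgeR adjusted p = 0.00824) and -2.40, -1.88 and -2.63 at the later stages in order. The E12.5 call was lost without KO replicate 2 (adjusted p = 0.0625) or KO replicate 4 (0.0558). As a check of the tissue, the summed level of 10 neuron markers was 2522 to 4561 CPM at E12.5 and 6064 to 6993 CPM at PND0. Markers of neural progenitors summed to 2233 to 3134 CPM at E12.5 and 399 to 489 CPM at PND0.

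In WT brains, 9 of the 10 genes were higher at PND0 than at E12.5, by log2 changes from 0.54 for Slc1a2 to 7.56 for Gfap, and Gja1 was the exception. Over the 17681 genes tested across this interval, 70.9% passed the threshold of an adjusted p under 0.05 by edgeR's quasi-likelihood test, 34.5% as higher and 36.4% as lower. The median log2 change was 2.15 for the 10 genes and -0.05 for all genes tested. As the genes were chosen as ones that astrocytes raise, these counts describe them and do not test the choice. The genes rose at different times: Aldh1l1, Aldoc and Nfia mainly before E14.5, Sparcl1 over all 3 steps, and Clu, Gfap, Aqp4 and S100b after E14.5.

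Step by step, from E12.5 to E14.5, 5 of the 9 genes tested passed the threshold, with 4 higher (Aldh1l1, Aldoc, Sparcl1, Nfia) and 1 lower (Gja1). The background was 57.8% of all genes tested, 27.3% higher and 30.5% lower. From E14.5 to E16.5 all 10 passed, with 8 higher and 2 lower (Slc1a2 and Nfia), against 57.5% of all genes, 29.3% higher and 28.2% lower. From E16.5 to PND0, 8 of 10 passed, each as higher, against 53.2% of all genes, 26% higher and 27.2% lower. Gja1 and Nfia did not pass in this last step. Stage and any difference in how the stages were handled cannot be told apart.

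**Figure D1:**
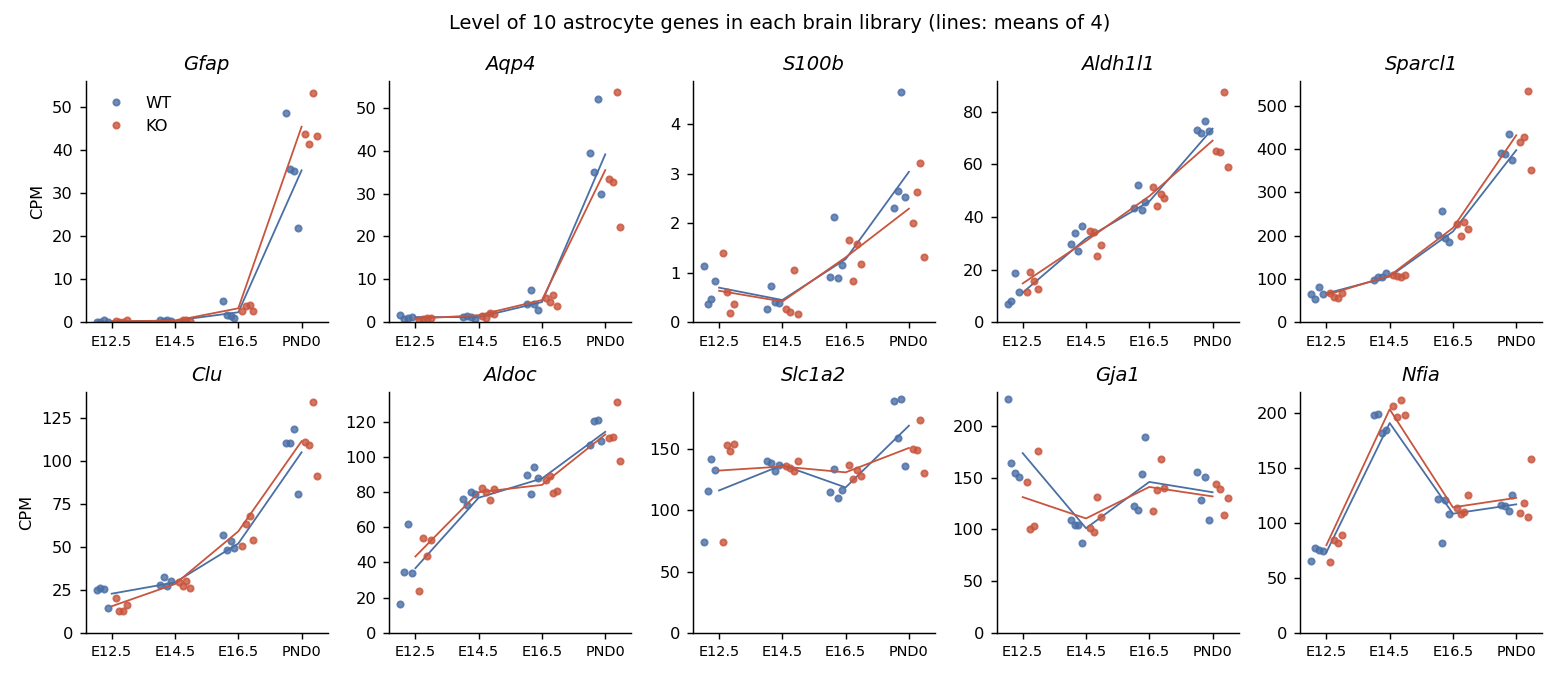
Each panel plots the CPM of 1 gene (vertical axis, from 0) in every library against stage, with WT in blue and KO in red and lines through the means of 4 libraries. Gfap and Aqp4 stay under 10 CPM until E16.5 and then rise, Nfia peaks at E14.5, and the ranges of the WT and KO libraries overlap for each gene at each stage.

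Gfap encodes the intermediate filament protein of astrocytes, and its rise was the largest of the 10. It was also the only member still under 10% of its PND0 mean at E16.5. The gene lies on chromosome 11 at 102887336 to 102900912, minus strand, of build GRCm38. In WT, the 4 libraries read 0.119, 0.123, 0.404 and 0.107 CPM at E12.5, from 2, 2, 7 and 3 counts. They read 0.531, 0.210, 0.499 and 0.168 CPM at E14.5, then 4.88, 1.73, 1.496 and 1.02 CPM at E16.5. At PND0 they read 48.6, 35.5, 35.0 and 21.8 CPM. All 4 libraries at birth thus stood above every earlier library, while the E12.5 and E14.5 values overlapped and lay near the limit that a count of 0 allows (3 counts, or 0.106 to 0.216 CPM by library, for counting error only). The log2 change was 2.71 from E14.5 to E16.5 (SE 0.55, edgeR adjusted p = 0.00122) and 3.90 from E16.5 to PND0 (SE 0.47, adjusted p = 0.000226), the latter a 14.9-fold rise. That last rise ranked 16 among the 17438 genes tested. Without E16.5 WT replicate 1, the highest library of that stage, the 2 changes were 2.03 and 4.57, and both still passed. With the level of CT010467.1, a ribosomal RNA gene, as a covariate the last change was 3.30. Gfap overlaps the noncoding gene Gm26668 on the opposite strand along its whole length, and counts of that gene were not used here. Over the whole interval the rise was 7.56 (SE 0.38), or 189-fold, and ranked 32 of 17681, and it was 8.19 without E12.5 WT replicate 3.

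Aqp4, the water channel of astrocyte endfeet (chromosome 18, 15389496 to 15410982, minus strand), had the next largest rise among the 10. WT libraries read 1.67, 0.797, 0.981 and 1.25 CPM at E12.5 and 1.15, 1.54, 1.13 and 0.797 CPM at E14.5. The 2 stages overlapped, and the log2 change between them was -0.04 (95% interval -0.70 to 0.62). At E16.5 the libraries read 4.16, 7.60, 4.13 and 2.81 CPM, and at PND0 39.6, 34.9, 52.1 and 30.0 CPM. Each of these 2 steps separated the groups fully. The log2 change was 2.01 from E14.5 to E16.5 (SE 0.30) and 2.995 from E16.5 to PND0 (SE 0.28, edgeR adjusted p = 1.16e-05, rank 46). Of the total log2 rise in WT means, 39.9% fell between E14.5 and E16.5 and 60.6% between E16.5 and PND0.

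S100b encodes a calcium-binding protein of the S100 family (chromosome 10, 76253853 to 76261159, plus strand). It was the least abundant of the 10 per length at birth. WT libraries read 1.13, 0.368, 0.462 and 0.822 CPM at E12.5, 0.265, 0.735, 0.408 and 0.378 CPM at E14.5, and 0.910, 2.13, 0.897 and 1.15 CPM at E16.5. At PND0 they read 2.32, 2.65, 4.65 and 2.54 CPM. The first 2 stages overlapped, with a log2 change of -0.64 (95% interval -1.62 to 0.33), and each later stage stood above the one before it. The log2 change was 1.48 from E14.5 to E16.5 (SE 0.39, edgeR adjusted p = 0.00408) and 1.18 from E16.5 to PND0 (SE 0.34, adjusted p = 0.00919). S100b overlaps Dip2a on the opposite strand over 1731 bp. Dip2a had 51519 counts over the 32 libraries and S100b 713, and whether the counting used strand is not given in the sources used here, so the S100b level is uncertain.

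Aldh1l1 and Aldoc are enzymes that mark astrocytes broadly, of folate metabolism and of glycolysis. Both took most of their rise in the first step. Aldh1l1 (chromosome 6, 90486427 to 90600203, plus strand) read 6.86, 7.97, 18.5 and 11.6 CPM in the WT libraries at E12.5 and 29.7, 33.8, 27.1 and 36.6 CPM at E14.5. It then read 43.4, 52.0, 42.6 and 45.7 CPM at E16.5 and 73.1, 72.0, 76.6 and 72.9 CPM at PND0. No 2 neighbouring stages overlapped. The log2 changes of the 3 steps were 1.49 (SE 0.28), 0.54 (SE 0.09) and 0.62 (SE 0.08), with edgeR adjusted p of 0.00201, 0.000164 and 1.86e-05. The first step held 55.4% of the log2 rise in the means.

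Aldoc (chromosome 11, 78322968 to 78327781, plus strand) read 16.2, 34.7, 61.9 and 34.0 CPM in the WT libraries at E12.5 and 76.0, 72.6, 79.7 and 78.7 CPM at E14.5. At E16.5 it read 89.8, 79.0, 94.1 and 87.8 CPM, and at PND0 107, 120, 121 and 109 CPM. The E12.5 libraries spread widely, while those of the later stages lay closer together, and E14.5 and E16.5 overlapped. The log2 changes were 1.05 (SE 0.32, edgeR adjusted p = 0.0202), 0.20 (SE 0.06, adjusted p = 0.00858) and 0.32 (SE 0.07, adjusted p = 0.00193). The first call was lost without a filter on low counts (adjusted p = 0.0768). The other calls were lost when all 32 libraries shared 1 estimate of the spread (0.505 and 0.154).

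Sequence upstream of a RefSeq start is shown for 3 genes: Gfap, as the member with the largest rise, and S100b and Aldoc, as those whose window held the motif TTGGCA, bound by NFI factors. The windows are the 250 bases before RefSeq starts (GRCm38.p6), which were found for 7 of the 10 genes, with 2 windows for Aldoc, and none was found for Aqp4, Sparcl1 and Clu. Capitals mark TTGGCA, and sequences run 5′ to 3′ on the gene's strand. Bases inside annotated exons of the gene were left off. The Gfap window lies inside the longer Gfap span that GENCODE gives, because the GENCODE gene starts further upstream than this RefSeq start.
Gfap, chr11:102897201-102897450, minus strand: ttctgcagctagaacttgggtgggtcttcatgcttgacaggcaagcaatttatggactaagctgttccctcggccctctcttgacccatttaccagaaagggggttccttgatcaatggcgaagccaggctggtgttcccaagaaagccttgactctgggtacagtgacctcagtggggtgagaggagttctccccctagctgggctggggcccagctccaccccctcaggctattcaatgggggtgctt
S100b, chr10:76253586-76253835, plus strand: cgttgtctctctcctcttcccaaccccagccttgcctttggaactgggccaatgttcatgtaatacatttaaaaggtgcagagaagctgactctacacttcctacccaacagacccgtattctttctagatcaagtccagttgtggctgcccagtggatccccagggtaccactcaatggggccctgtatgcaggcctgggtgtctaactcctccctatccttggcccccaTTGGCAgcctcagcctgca
Aldoc, chr11:78322823-78322967, plus strand: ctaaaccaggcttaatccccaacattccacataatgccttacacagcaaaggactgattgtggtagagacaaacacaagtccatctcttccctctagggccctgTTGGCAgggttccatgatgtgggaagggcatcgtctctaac

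The windows were searched on both strands for TTGGCA, for the paired NFI motif, which is TTGGC followed by any 5 bases and then GCCAA and so shares its first 5 letters with TTGGCA, and for a STAT motif, TTCNNNGAA. TTGGCA was found in the S100b window, 19 bases before the start, and in the upstream Aldoc window, 146 bases before it. The STAT letters were found in the other Aldoc window, at 2 places, and in no other member window. That Aldoc window lies inside the Aldoc span that GENCODE gives, and both places fall among its exon bases. The paired NFI motif was found in 0 of the 8 windows. Of all 32851 windows of this length, 12.3% held TTGGCA, 0.0365% the paired NFI motif and 7.02% the STAT motif. A match is a description of these letters and not of a bound site.

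Sparcl1 and Clu encode secreted proteins, the synapse-promoting protein hevin and the chaperone clusterin, and Sparcl1 rose in each of the 3 steps and Clu in the last 2. Sparcl1 (chromosome 5, 104079111 to 104113733, minus strand) was the most abundant of the 10 per length from E14.5 on. WT libraries read 64.9, 52.9, 80.9 and 66.0 CPM at E12.5, 97.7, 105, 105 and 113 CPM at E14.5, and 201, 256, 195 and 186 CPM at E16.5. At PND0 they read 390, 389, 435 and 375 CPM. No 2 neighbouring stages overlapped, and the log2 changes were 0.65 (SE 0.11), 0.999 (SE 0.10) and 0.87 (SE 0.10), with edgeR adjusted p of 0.000656, 5.91e-06 and 5.89e-06. Sparcl1 overlaps the antisense gene Gm26703 over 4517 bp, with 114431 and 571 counts over the 32 libraries.

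Clu (chromosome 14, 65968483 to 65981547, plus strand) read 25.2, 26.1, 25.7 and 14.2 CPM in the WT libraries at E12.5 and 27.7, 32.3, 27.3 and 30.2 CPM at E14.5. The first step did not pass (log2 change 0.35, 95% interval -0.06 to 0.77, edgeR adjusted p = 0.123), although the ranges did not overlap. It passed when all 32 libraries shared 1 estimate of the spread (0.0449). At E16.5 the libraries read 56.8, 48.4, 53.3 and 49.7 CPM and at PND0 111, 110, 119 and 81.1 CPM. Both later steps separated the groups, with log2 changes of 0.83 (SE 0.07, adjusted p = 1.27e-07) and 0.96 (SE 0.10, adjusted p = 4.37e-06).

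Slc1a2, the main glutamate transporter of astrocytes (chromosome 2, 102658659 to 102790784, plus strand), was already abundant at the first stage. WT libraries read 74.2, 116, 142 and 133 CPM at E12.5, 141, 139, 132 and 137 CPM at E14.5, and 115, 133, 110 and 117 CPM at E16.5. At PND0 they read 190, 159, 191 and 137 CPM. Only the last step separated neighbouring stages. Its log2 change was 0.45 (SE 0.10, edgeR adjusted p = 0.00213), after a change of -0.20 from E14.5 to E16.5 (SE 0.06, adjusted p = 0.00693). The smaller middle change did not pass with 1 spread for all 32 libraries (0.324). The rise from E12.5 to PND0 was 0.54 (SE 0.18, adjusted p = 0.0191). That call was lost without a filter on low counts (0.134) and without E12.5 WT replicate 2, PND0 WT replicate 1 or PND0 WT replicate 3 (0.0520 to 0.0578).

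Gja1, the gap junction protein connexin 43 (chromosome 10, 56377330 to 56402513, plus strand), was the only member that passed the threshold as lower from E12.5 to E14.5. WT libraries read 226, 164, 155 and 150 CPM at E12.5, 109, 104, 105 and 86.7 CPM at E14.5, and 122, 119, 153 and 189 CPM at E16.5. At PND0 they read 155, 128, 150 and 109 CPM. The fall to E14.5 and the return at E16.5 each separated the groups, with log2 changes of -0.80 (SE 0.14, edgeR adjusted p = 0.00150) and 0.53 (SE 0.16, adjusted p = 0.0267). The second of these calls was lost without E14.5 WT replicate 3 (0.0506), E14.5 WT replicate 4 (0.0539) or E16.5 WT replicate 3 (0.0705), without a filter on low counts (0.0753) and with a covariate of sex-linked genes (0.0664). Between E12.5 and PND0 the change was -0.36 (95% interval -0.70 to -0.02, adjusted p = 0.0536). It passed with the covariate of sex-linked genes (0.0157) and without E12.5 WT replicate 3, E12.5 WT replicate 4 or PND0 WT replicate 1 (0.0367 to 0.0459).

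Nfia, a transcription factor of the NFI family that acts at the start of gliogenesis (chromosome 4, 97772734 to 98118874, plus strand), had its highest mean at E14.5, unlike the other members. WT libraries read 65.9, 77.2, 75.4 and 75.0 CPM at E12.5, 199, 199, 182 and 185 CPM at E14.5, 122, 82.3, 121 and 109 CPM at E16.5, and 117, 115, 111 and 126 CPM at PND0. Every E14.5 library stood above every library of the other stages. The log2 changes were 1.37 (SE 0.06, edgeR adjusted p = 5.76e-07), -0.81 (SE 0.11, adjusted p = 0.000215) and 0.05 (95% interval -0.17 to 0.28). Nfia overlaps E130114P18Rik on the opposite strand over 5345 bp, with 77873 and 8014 counts over the 32 libraries.

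The share of counts taken by the ribosomal RNA gene CT010467.1 also differed between stages. In WT it was 0.267% to 0.376% at E12.5, 1.04% to 1.17% at E14.5 and 1.80% to 2.79% at PND0, so these 3 stages did not overlap. At E16.5 it was 3.75%, 0.626%, 0.356% and 0.489% in replicates 1 to 4. Replicate 3 lay in the E12.5 range, replicates 2 and 4 between the E12.5 and E14.5 ranges, and replicate 1 above the PND0 range. With its level as a covariate, 0 of the tested members and 0 of all genes passed from E12.5 to E14.5 or from E12.5 to PND0. The fitted log2 changes of Aldh1l1, Aldoc, Slc1a2 and Sparcl1 from E12.5 to E14.5 then turned to -1.31, -0.64, -0.65 and -0.65. In these 2 comparisons the covariate and the stage cannot be told apart.

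Levels between genes were compared per length, as CPM per kb of the longest annotated transcript. At E12.5 in WT, Gja1 stood highest at 44.7 ± 9.10 (SD, n = 4), then Sparcl1 at 24.0 ± 4.16. Gja1 overlapped no other member. Aldoc, Clu, Slc1a2 and Nfia followed at 13.2, 12.6, 10.02 and 7.70, and from Sparcl1 to Nfia each range overlapped the next. Aldh1l1 stood apart at 2.69. S100b and Aqp4, which overlapped, and Gfap closed the order at 0.469, 0.233 and 0.0711. At PND0 the order was Sparcl1 at 144 ± 9.47, Clu at 58.1 ± 9.16, Aldoc at 41.0 ± 2.67 and Gja1 at 34.9 ± 5.47, where Aldoc and Gja1 overlapped. Aldh1l1 stood at 17.6, then Slc1a2, Gfap and Nfia at 14.6, 13.3 and 12.3, with Slc1a2 overlapping Gfap and Gfap overlapping Nfia. Aqp4 and S100b stood at 7.74 and 2.05. Gfap thus moved from the last place to a range that overlapped those of Aldh1l1, Slc1a2, Nfia and Aqp4. Gja1 moved from the first place to the range of Aldoc.

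The timing was set side by side in both genotypes as the mean of a stage in percent of the PND0 mean of the same genotype. Gfap first passed 10% of its level at birth at PND0 in both genotypes, with 6.47% at E16.5 in WT and 7.07% in KO. Aqp4 passed 10% at E16.5 in both, with 11.95% in WT. Sparcl1 and Aldh1l1 passed 50% at E16.5 in both, and Aldoc at E14.5, at 67.2% in WT and 70.9% in KO. The stage of 50% differed for 2 genes, Clu and S100b, which passed it at PND0 in WT and at E16.5 in KO. For Clu these values at E16.5 were 49.5% in WT and 53.0% in KO, and for S100b 41.9% and 57.0%. The S100b means were 1.27 CPM in WT and 1.31 CPM in KO at E16.5, and 3.04 and 2.29 CPM at PND0. That PND0 WT mean includes replicate 3 at 4.65 CPM, above the other libraries at 2.32 to 2.65 CPM. For both genes the WT and KO libraries overlapped at E16.5 and at PND0. Nfia at E14.5 stood at 163% of its PND0 level in WT and 166% in KO. These percentages are descriptions without a test.

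**Figure D2:**
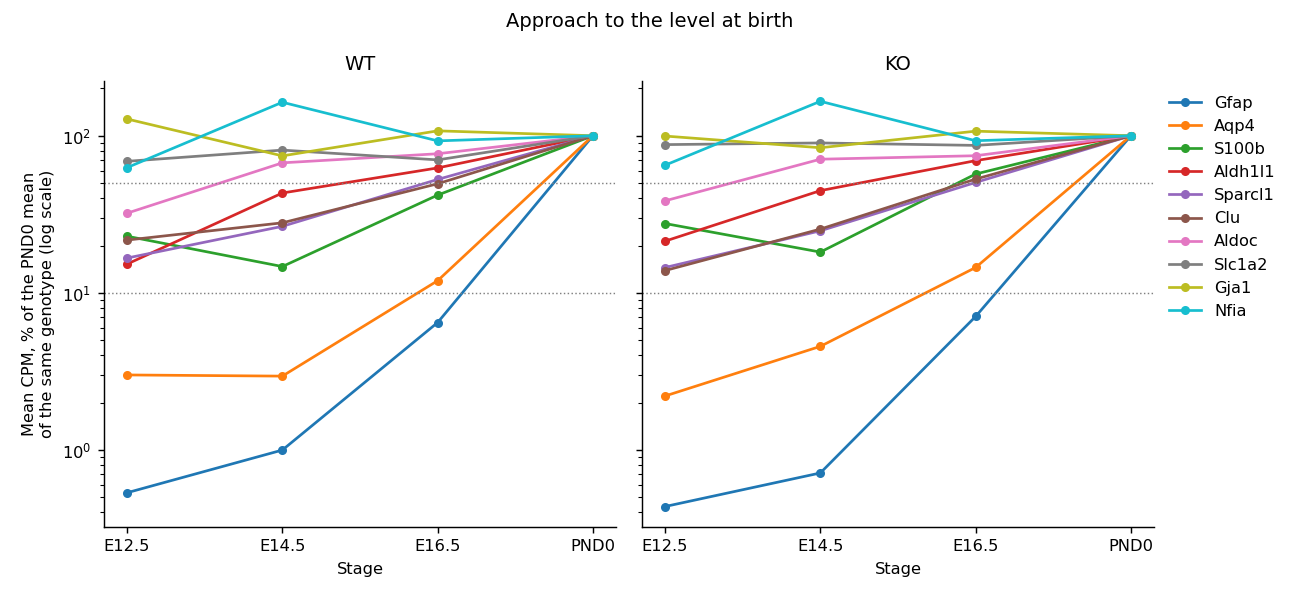
The mean CPM of each gene as a percentage of its PND0 mean (vertical axis, log scale) is plotted against stage for WT (left) and KO (right), with dotted lines at 10% and 50%. In both genotypes Gfap and Aqp4 start lowest, and Nfia peaks at E14.5.

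Between KO and WT, none of the 10 genes passed the threshold at any stage in edgeR's test. At E12.5 the count was 0 of 8 tested, against 0.0177% of all genes, and 1 had an unadjusted p under 0.05, as did 796 of all 16948 genes. At E14.5 it was 0 of 8 tested, against 0.527% of all genes, and 1 had an unadjusted p under 0.05, as did 1557 of 17837. At E16.5 and PND0 it was 0 of 10, against 0.0462% and 1.44% of all genes. There 0 members had an unadjusted p under 0.05, against 2001 of 17328 genes at E16.5 and 3130 of 17420 at PND0. DESeq2 also called 0 of them at each stage. Gfap and S100b were left out at E12.5 and E14.5 by the filter on low counts. The median log2 change of the tested members was -0.00, 0.04, 0.06 and -0.03 at the 4 stages in order. Over all genes tested it rounded to 0.00 at each stage.

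Gfap at PND0 read 43.7, 41.3, 53.3 and 43.1 CPM in KO, against 48.6, 35.5, 35.0 and 21.8 CPM in WT. The KO libraries lay within a narrow range that the highest WT library reached, and the log2 change was 0.37 (95% interval -0.05 to 0.79, edgeR adjusted p = 0.342). Without a filter on low counts the change of 0.38 passed (adjusted p = 0.0393). Without PND0 WT replicate 4, the lowest WT library, the change was 0.20 (adjusted p = 0.489). At E16.5 the KO libraries read 2.47, 3.72, 4.08 and 2.56 CPM, inside the WT range, and the change was 0.49 (95% interval -0.52 to 1.49), or 1.15 without E16.5 WT replicate 1 (adjusted p = 0.107). In the fit of all libraries of the stage, the upper bound of 1.49 was below the WT rise of the following step, 3.90 (95% interval 2.81 to 4.99). The first value compares genotypes and the second compares stages.

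At E14.5 and before, Gfap read 0.309, 0, 0.0601 and 0.423 CPM in KO at E12.5, and 0.134, 0.392, 0.407 and 0.362 CPM at E14.5. A difference from WT was not detectable at this depth. S100b in KO read 1.39, 0.601, 0.180 and 0.363 CPM at E12.5 and 0.268, 0.196, 1.05 and 0.155 CPM at E14.5. It then read 1.67, 0.827, 1.57 and 1.17 CPM at E16.5 and 1.999, 2.64, 3.21 and 1.32 CPM at PND0. It overlapped the WT libraries at every stage, with a log2 change at PND0 of -0.40 (95% interval -1.11 to 0.30). Aqp4 in KO read 0.463, 0.734, 0.962 and 0.967 CPM at E12.5 and 1.34, 1.06, 2.21 and 1.86 CPM at E14.5. It then read 5.70, 4.69, 6.34 and 3.85 CPM at E16.5 and 33.4, 32.6, 53.6 and 22.2 CPM at PND0. Its log2 changes in that order were -0.60, 0.45, 0.12 and -0.14, and each 95% interval held 0.

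The enzymes overlapped between genotypes at each stage. Aldh1l1 read 11.6, 19.1, 15.6 and 12.7 CPM in KO at E12.5 and 65.0, 64.7, 87.7 and 58.9 CPM at PND0, with log2 changes from WT of 0.37 (95% interval -0.29 to 1.04) and -0.09 (-0.32 to 0.15). Aldoc read 23.8, 53.7, 43.4 and 52.7 CPM in KO at E12.5 and 111, 111, 131 and 97.5 CPM at PND0, with log2 changes of 0.23 (95% interval -0.60 to 1.06) and -0.02 (-0.21 to 0.18). At E14.5 the 95% interval was -0.27 to 0.19 for Aldh1l1 and -0.03 to 0.15 for Aldoc. Of the other members tested at that stage, Slc1a2, Sparcl1, Clu and Nfia had intervals within -0.19 to 0.17, and Gja1 (-0.16 to 0.42) and Aqp4 (-0.16 to 1.07) had wider ones.

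Among the secreted proteins, Clu at E12.5 read 20.5, 12.7, 12.7 and 16.0 CPM in KO, against 25.2, 26.1, 25.7 and 14.2 CPM in WT. The KO libraries stood below 3 of the WT libraries and overlapped the other. The log2 change was -0.58 (95% interval -1.10 to -0.07, unadjusted p = 0.0290, edgeR adjusted p = 0.875). At the later stages the change of Clu was -0.05, 0.18 and 0.09. Sparcl1 in KO read 66.8, 58.6, 56.7 and 68.3 CPM at E12.5 and 416, 428, 533 and 351 CPM at PND0. Both overlapped WT, with log2 changes of -0.11 (95% interval -0.39 to 0.18) and 0.12 (-0.10 to 0.35). Without PND0 KO replicate 3 the latter was 0.00293.

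Slc1a2 in KO read 73.9, 154, 148 and 154 CPM at E12.5, 137, 126, 133 and 128 CPM at E16.5, and 151, 150, 174 and 130 CPM at PND0. Its log2 change was 0.14 at E16.5 (95% interval -0.00 to 0.27, edgeR adjusted p = 0.436) and -0.16 at PND0 (-0.40 to 0.08). The PND0 value turned to 0.04 with offsets for transcript length. Gja1 in KO read 146, 99.9, 104 and 175 CPM at E12.5, with a log2 change of -0.43 (95% interval -0.91 to 0.04, adjusted p = 0.875), and its later changes were 0.13, -0.06 and -0.04. Nfia at E14.5 read 207, 197, 212 and 199 CPM in KO, against 199, 199, 182 and 185 CPM in WT. The ranges overlapped, and the log2 change was 0.09 (95% interval 0.02 to 0.17, unadjusted p = 0.0152, adjusted p = 0.406).

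**Figure D3:**
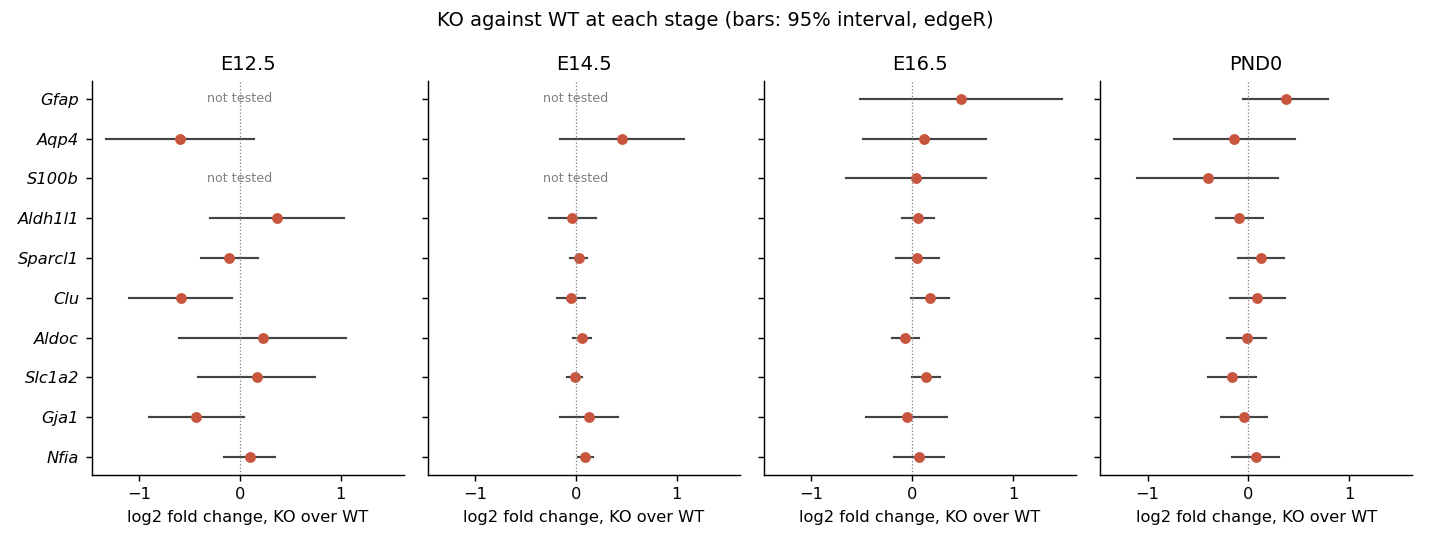
Points give the log2 fold change of KO over WT (horizontal axis) for each gene at each stage, and bars the 95% interval from edgeR. Only the bars of Clu at E12.5 and Nfia at E14.5 leave out 0, before adjustment for the number of genes tested.

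The difference between genotypes was also tested for a change between stages, in 1 fit of all 32 libraries. By edgeR 0 of the 10 genes passed, against 0.0256% of the 19541 genes tested, and DESeq2 called 0 of the 10 as well. Clu had the smallest p among them (unadjusted p = 0.0137, adjusted p = 0.270), and it was the 1 gene of the 10 with an unadjusted p under 0.05. The largest adjusted p among the 10 was 0.996, for Nfia.

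The fitted biological coefficient of variation between libraries of a group, over all genes, was 19.9% at E12.5 and 6.25%, 9.99% and 16.6% at the later stages in order. At E12.5, markers of other cells moved with some of the 10 genes. The summed level of 10 genes of meninges and fibroblasts, such as the collagen genes Col1a1 and Col3a1, was 3224, 2212, 1484 and 1950 CPM in the WT libraries at E12.5 and 2444, 706, 776 and 2771 CPM in the KO libraries. At E14.5 it was 681 to 780 CPM in WT and 680 to 975 CPM in KO, and 0 of the 10 markers was at 0 in any group. Gja1, which meningeal cells also express, read 226, 164, 155 and 150 CPM and 146, 99.9, 104 and 175 CPM in the same E12.5 libraries in order. KO replicates 2 and 3, with marker sums inside the E14.5 range, had Gja1 levels of 99.9 and 104 CPM, inside the range of the E14.5 libraries too (86.7 to 132 CPM). The WT fall of Gja1 from E12.5 to E14.5 went with a change of the same list. In it 8 of 10 genes passed, 6 as lower and 2 as higher, against 57.8% of all genes, 30.5% lower and 27.3% higher. The median log2 change of the list was -1.21, against -0.03 for all genes tested. The part of these cells in the Gja1 levels was not tested.

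In the WT libraries at E12.5, Clu did not follow the sums of the meninges and fibroblast markers. Its lowest value in WT, 14.2 CPM in replicate 4, went with a marker sum of 1950 CPM, and its highest values went with 1484 to 3224 CPM. In KO, its 2 lowest values, both 12.7 CPM, were in replicates 2 and 3, which also had the lowest marker sums, 706 and 776 CPM. KO replicates 1 and 4 read 20.5 and 16.0 CPM, with sums of 2444 and 2771 CPM. Aldoc and Slc1a2 were lowest in replicate 1 of each genotype at E12.5, at 16.2 and 74.2 CPM in WT and 23.8 and 73.9 CPM in KO. These libraries had the lowest sum of the 10 neuron markers in their genotype, 2522 CPM in WT and 3566 CPM in KO, and in KO replicate 1 the gene CT010467.1 took 5.64% of counts. Without both libraries, an alternative chosen after the data were seen, 0 of the tested members passed at E12.5. Clu then stood at -0.69 (edgeR adjusted p = 0.868), Gja1 at -0.32, Aqp4 at -0.23 and Aldoc at 0.18. The part of these markers in the levels was not tested.

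**Figure D4:**
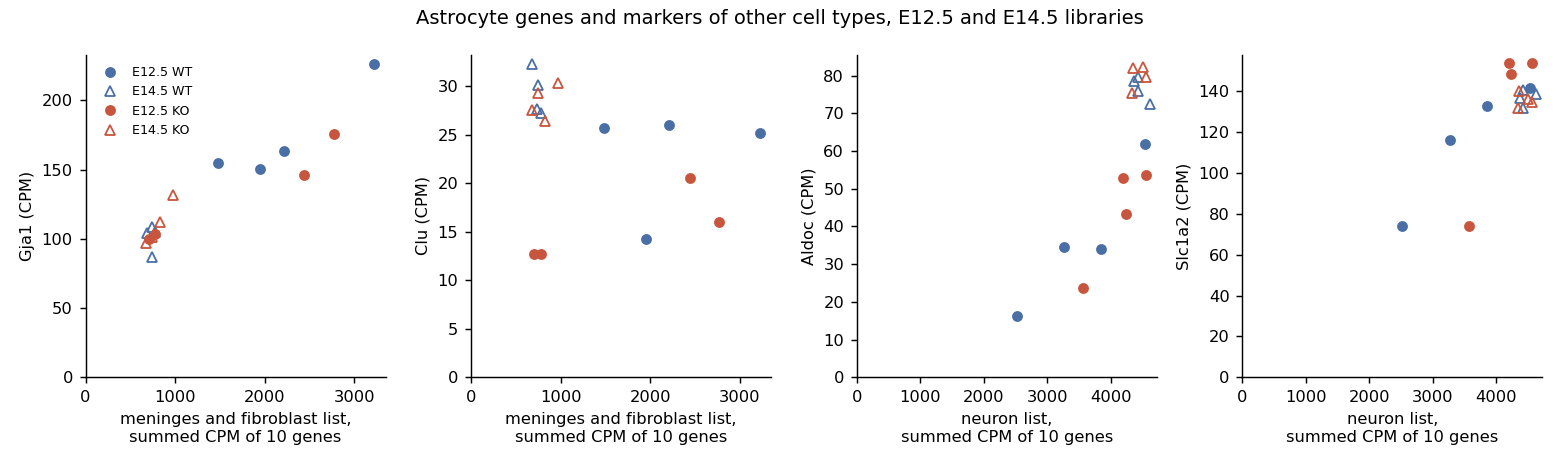
The CPM of Gja1, Clu, Aldoc and Slc1a2 (vertical axes) is plotted against the summed CPM of 10 meninges and fibroblast markers or 10 neuron markers (horizontal axes) for the E12.5 (filled circles) and E14.5 (open triangles) libraries, WT in blue and KO in red. Gja1 lies at 86.7 to 132 CPM where the meninges and fibroblast sum is 680 to 975 CPM, and higher in the other libraries. Its lowest value, in E14.5 WT replicate 4, goes with a sum of 742 CPM and not with the lowest sum. Aldoc lies lowest in the E12.5 libraries with the lowest neuron sums of their genotype.

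At PND0 single libraries were high or low for most of the genes at once. KO replicate 3 was the highest KO library for 8 of the 10, and KO replicate 4 the lowest for 7. WT replicate 3 was the highest WT library for 7, and WT replicate 4 the lowest for 6. KO replicate 3 also had the highest sum of 8 erythroid markers, 2295 CPM, against 234 to 633 CPM in the other KO libraries and 200 to 268 CPM in WT. Of these markers the embryonic globin Hbb-y was at 0 in all 4 KO libraries, and no marker was at 0 in all WT libraries. The summed level of 10 markers of ependyma and choroid plexus, such as Foxj1 and Ttr, was 759, 664, 1068 and 779 CPM in the KO libraries and 574, 649, 366 and 661 CPM in the WT libraries, without overlap. KO replicate 3 was again the highest, and 0 of these markers were at 0 in either group. By edgeR 0 of these 10 markers passed in KO against WT, against 1.44% of all genes. Of the 10, 1 had an unadjusted p under 0.05, as did 3130 of all 17420 genes. Without KO replicate 3 the log2 changes were -0.41 for Aqp4 (edgeR adjusted p = 0.320), -0.23 for Aldh1l1 (0.183), -0.61 for S100b (0.402) and 0.28 for Gfap (0.569). Clu turned from 0.09 to -0.01 without that library or without WT replicate 4. The part of blood, ependymal and choroid plexus cells in these levels was not tested.

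A list of 30 other genes of astrocytes and their precursors gave the wider view. In KO against WT, 0 of 26 tested genes passed at E12.5, 0 of 28 at E14.5, 0 of 29 at E16.5 and 0 of 30 at PND0, by edgeR, with 0, 4, 3 and 3 at an unadjusted p under 0.05. Over all genes, 0.0177%, 0.527%, 0.0462% and 1.44% passed, and 796 of 16948, 1557 of 17837, 2001 of 17328 and 3130 of 17420 had an unadjusted p under 0.05. The gene with the smallest p was Ttyh1, Sparc and Cst3 in turn at the 3 embryonic stages. Ttyh1, a tweety-family membrane protein, read 158 ± 27.8 CPM (SD, n = 4 here and below) in WT against 193 ± 16.4 CPM in KO (log2 change 0.27, adjusted p = 0.875). Sparc, a matricellular protein, read 216 ± 6.37 CPM in WT against 235 ± 7.98 CPM in KO (0.12, adjusted p = 0.113), and it passed by DESeq2 (0.0494). Cst3, the protease inhibitor cystatin C, read 171 ± 17.5 CPM in WT and 152 ± 5.75 CPM in KO (-0.18, adjusted p = 0.361).

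Over the WT stages, 30 of the 30 genes in that list passed from E12.5 to PND0, 24 as higher and 6 as lower, with a median log2 change of 1.64 against -0.05 for all genes. The background was 34.5% higher and 36.4% lower. This list too was chosen with earlier results of these data known, so its counts are a description and not a test. In the first step 11 rose and 6 fell of 27 tested, against 27.3% and 30.5% of all genes. In the second 16 rose and 7 fell of 28, against 29.3% and 28.2%, and in the last 20 rose and 4 fell of 30, against 26% and 27.2%. Agt, the precursor of angiotensin, rose from 0.586 ± 0.366 to 13.0 ± 5.02 CPM between E16.5 and PND0 (log2 change 4.41, edgeR adjusted p = 1.33e-06). Gpr37l1, an orphan receptor of astrocytes, had 0 counts in the 4 WT libraries at E12.5 and 217 at PND0. It was therefore at least 73.7-fold higher at birth, against a limit of 3 counts over the group. Hepacam, an adhesion protein that partners with Mlc1, rose from 0.864 ± 0.405 to 5.47 ± 0.613 CPM in the first step (2.68, adjusted p = 3.09e-05) and to 47.3 ± 7.24 CPM by PND0.

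Transporters and a lipid carrier of the list rose from E14.5 to E16.5. Slc4a4, a sodium bicarbonate cotransporter, rose by 1.84, and Slc6a11, a GABA transporter, by 1.80 after 1.72 in the first step. Apoe, the apolipoprotein of astrocytes, rose by 1.26, and Slc7a10, an amino acid transporter, rose by 1.49 in the first step. Itih3 rose by 1.95 in the last step. Among the genes that fell was Vim, a filament protein that radial glia express. It fell from 923 ± 76.2 CPM at E12.5 to 240 ± 16.0 CPM at PND0 (log2 change -1.95, edgeR adjusted p = 3.06e-08). Fgfr3, a growth factor receptor, fell from 165.3 ± 36.9 to 59.6 ± 4.99 CPM (-1.47), and Id3 from 96.4 ± 31.8 to 28.3 ± 5.57 CPM (-1.78). Fabp7, a fatty acid binding protein, fell by 0.37 in the last step on the log2 scale, and Chrdl1, a BMP antagonist, by 0.68 in the second step. Sparc fell by 0.91 in the first step. In the E12.5 WT libraries it read 518, 400, 308 and 381 CPM, where the meninges and fibroblast markers summed to 3224, 2212, 1484 and 1950 CPM. In KO it read 432.5, 250, 277 and 448 CPM, where they summed to 2444, 706, 776 and 2771 CPM. The part of these cells in the Sparc levels was not tested. The last step of Id3 (-0.33, adjusted p = 0.0366) was lost with 1 spread for all 32 libraries (0.404), with the CT010467.1 covariate (0.267) and without E16.5 WT replicate 3 or 4 or PND0 WT replicate 1 or 4 (0.0743 to 0.118).

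Of 20 regulators of gliogenesis, 19 were tested at each stage, and 0, 0, 0 and 1 passed in KO against WT, with 0, 4, 1 and 5 at an unadjusted p under 0.05. Over all genes, 0.0177%, 0.527%, 0.0462% and 1.44% passed at the stages in order. An unadjusted p under 0.05 was found for 796 of 16948, 1557 of 17837, 2001 of 17328 and 3130 of 17420 genes. Nfix, a transcription factor of the same family as Nfia, was the 1 that passed. At PND0 it read 709 ± 31.1 CPM in WT against 946 ± 138 CPM in KO, without overlap, with a log2 change of 0.42 (SE 0.09, edgeR adjusted p = 0.0293). The call was lost in 6 of the 8 fits that left out 1 library: without any 1 of the 4 WT libraries, KO replicate 1 or KO replicate 2 (0.0528 to 0.107). It was also lost with 1 spread for all 32 libraries (0.207) and with the CT010467.1 covariate (0.692). Zbtb20, a zinc finger factor, read 77.7 ± 2.30 CPM in WT and 87.7 ± 2.69 CPM in KO at E14.5 (0.17, adjusted p = 0.0537). It passed by DESeq2 (0.0155), with the covariate of sex-linked genes (0.0395) and without E14.5 WT replicate 2 (0.0158). Bmpr1a, a BMP receptor, had the smallest p at E12.5 (-0.27, adjusted p = 0.875) and at E16.5 (-0.17, adjusted p = 0.415).

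In WT the highest mean of Nfia was at E14.5, at 191 ± 9.20 CPM, and that of Nfix at PND0. Nfib read 413 ± 22.4 CPM at E14.5 and 493 ± 99.2 CPM at E16.5, and these 2 stages overlapped. In the first step all 3 rose, Nfib by 1.09 (edgeR adjusted p = 3.64e-05) and Nfix by 1.85 (adjusted p = 7.84e-07) on the log2 scale. In the last step Nfib fell by 0.89 and Nfix rose by 0.70. The rise of Nfix was lost without a filter on low counts (adjusted p = 0.0835), with the CT010467.1 covariate (0.121), and without E16.5 WT replicate 4 (0.0505) or PND0 WT replicate 4 (0.0518).

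Of the whole list of regulators, 7 rose and 11 fell among the 19 tested from E12.5 to PND0, against 34.5% higher and 36.4% lower for all genes. The receptor Notch1 fell by 1.67 between E14.5 and E16.5 after a rise of 0.48, and its target Hes1 fell by 1.38. Hes5, also a Notch target, fell by 0.77 in the first step, and its change over the whole interval was -1.97. Sox9 fell by 1.28 between E14.5 and E16.5, from 113 ± 6.62 to 46.3 ± 2.89 CPM. Ezh2, a histone methyltransferase that holds glial genes silent in progenitors, fell from 230 ± 14.2 CPM at E12.5 to 65.6 ± 11.3 CPM at PND0 (-1.82). The kinase Jak1 rose by 0.59 and Il6st, which encodes the receptor gp130, by 0.56 in the last step. The kinase Jak2 rose by 0.39 in the second step and the receptor Lifr by 0.86 over the whole interval, while Ctf1, a cytokine ligand of these receptors, and Bmp4 fell by 1.10 and 2.08 in the first step. Bmp4 then rose by 0.61 (adjusted p = 0.0121), which was lost with 1 spread for all 32 libraries (0.182) and without E16.5 WT replicate 4 (0.0518). Zbtb20 rose by 1.22 in the second step and fell by 0.93 in the last.

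The 10 genes did not share 1 profile. Over the 32 libraries, the Pearson r of a gene's log2 CPM with the mean of the other 9 was 0.969 for Sparcl1, 0.940 for Clu, 0.930 for Aqp4, 0.923 for Gfap, 0.899 for Aldh1l1 and 0.804 for Aldoc. It was 0.672 for S100b, 0.460 for Slc1a2, 0.102 for Nfia and -0.109 for Gja1. The libraries share stages, so these values describe the course over development, and no p is attached. Of 12448 genes outside the list with at least 5 CPM on average at PND0, those most like the mean of the 10 were Slc24a3 (r = 0.988), Ntrk2 (0.987), Retreg1 (0.986), Lrrc3 (0.986) and Lsamp (0.985). Ntrk2 encodes the BDNF receptor TrkB, and its WT means were 90.5, 144.9, 178 and 362 CPM over the 4 stages. The gene most like each single member was Gm2a for Gfap (r = 0.978), Chst2 for Aqp4 (0.974), Serpine2 for S100b (0.887), Sv2a for Aldh1l1 (0.984) and Psd2 for Aldoc (0.969). It was Vgf for Sparcl1 (0.988), Baalc for Clu (0.982), Map1b for Slc1a2 (0.864), Arhgap29 for Gja1 (0.915) and Prkx for Nfia (0.920). In WT, 10 of the 10 neuron markers also passed as higher from E12.5 to PND0, against 34.5% of all genes, with a median log2 change of 1.30. A like course therefore does not assign a gene to astrocytes.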

How the data were processed

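RNA was poly(A)-enriched and sequenced as paired-end reads, per the labels' protocols. The submitters' processing notes name HISAT2, SAMtools, featureCounts, DESeq2 and mm10, without versions or roles. The deposited tables hold raw counts per gene symbol, not normalized, 1 table per stage. Whether counting used strand is not given in the sources used here.

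The 10 genes and all lists were chosen with earlier results of these data known. All genes passing filterByExpr (minimum count 10, minimum total 15) were fitted with edgeR 4.0.16 in R 4.3.3 (TMM, robust quasi-likelihood test), with the 4 WT and 4 KO libraries of a stage, the 4 WT libraries of each of 2 stages, or all 32 libraries for the interaction. Benjamini-Hochberg adjustment covered all genes tested, with a threshold of 0.05. Scripts were tested on simulated data. Alternatives were RLE size factors, no filter, DESeq2 1.42.0, 1 fit of all 32 libraries, the replicate number as a block, covariates of sex-linked genes and of CT010467.1, transcript length offsets, and leaving out each library.

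Positions come from GENCODE M21 (GRCm38), with 53186 symbols matched by name, 397 by RefSeq synonym, 106 at several loci and 1602 unmatched. No 2 libraries of a group were copies: the chi-square per degree of freedom was at least 2.90 over 48 pairs. The depth was 13.87 to 28.32 M counts per library. Intervals and limits cover counting error only where they rest on 1 library, since reads carried no molecular identifiers.

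Named genes were all 10 members, Dhcr7, and from the astrocyte and regulator lists the 3 largest changes in each direction past the threshold in each WT step, those past the threshold in KO against WT (at most 5), or otherwise the 1 with the smallest p. They also included the 5 genes most like the mean of the members and the 1 most like each member. The gene that this rule names at PND0 from the astrocyte list is not reported here.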

Additional observations from a re-analysis of the deposited data

Results flagged for a closer look

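Each of the 80 combinations of a gene and a group was examined for 1 library far from the other 3 (Dixon's test at its 95% critical value), and 6 stood apart. Chance alone sets apart about 1 in 20 such groups.

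Gfap in E12.5 WT replicate 3 read 0.404 CPM, above the other 3 libraries at 0.107 to 0.123 CPM. Gfap in E14.5 KO replicate 1 read 0.134 CPM, below the others at 0.362 to 0.407 CPM. S100b in E14.5 KO replicate 3 read 1.05 CPM, above the others at 0.155 to 0.268 CPM. These 3 values rest on 3 to 18 counts. S100b in PND0 WT replicate 3 read 4.65 CPM, above the others at 2.32 to 2.65 CPM. Slc1a2 in E12.5 KO replicate 1 read 73.9 CPM, below the others at 148 to 154 CPM. Clu in E12.5 WT replicate 4 read 14.2 CPM, below the others at 25.2 to 26.1 CPM.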

How the results depend on the processing

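The number of the 10 genes past the threshold kept within 1.5 times under every alternative except 3. Without a filter on low counts it rose from 0 to 1 for KO against WT at PND0 (Gfap). With the CT010467.1 covariate it was 0 for WT E14.5 and for WT PND0 against E12.5. When each library was left out in turn it was 0 in each genotype comparison and in the interaction, and 5, 9 to 10, 8 and 8 to 10 in the WT comparisons.

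For KO against WT, the log2 change turned sign with the CT010467.1 covariate for Aldh1l1 at E14.5 (0.0584), S100b at E16.5 (-0.0585) and, at PND0, Sparcl1 (-0.00494) and Clu (-0.14). It did so with the covariate of sex-linked genes at E16.5 for Aqp4 (-0.00761) and S100b (-0.10), and with length offsets at PND0 for Slc1a2 (0.0356) and Clu (-0.0128). In WT, the CT010467.1 covariate turned, from E12.5 to E14.5, Aldh1l1 (-1.31), Aldoc (-0.64), Slc1a2 (-0.65), Sparcl1 (-0.65), Slc6a11 (-0.0775) and Bmp4 (1.41). It turned, from E16.5 to PND0, Gja1 (0.0464) and Nfia (-0.0235), and from E12.5 to PND0, Gja1 (0.76) and Id3 (0.11). The cause was not tested.

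Leaving out 1 library turned the sign of KO against WT values for Aldoc at E12.5 (-0.0120 to 0.59), and at E14.5 for Aldh1l1 (-0.10 to 0.0436), Clu (-0.0831 to 0.000596), Slc1a2 (-0.0294 to 0.00126) and Sparcl1 (-0.00716 to 0.0611). At E16.5 it did so for Aqp4 (-0.0564 to 0.47), Gja1 (-0.15 to 0.10), Nfia (-0.0393 to 0.13), S100b (-0.11 to 0.41) and Sparcl1 (-0.00468 to 0.16). At PND0 these were Aldoc (-0.10 to 0.0501), Aqp4 (-0.41 to 0.0345), Clu (-0.0137 to 0.18), Gja1 (-0.13 to 0.0312) and Nfia (-0.0702 to 0.14). In WT they were Aqp4 from E12.5 to E14.5 (-0.21 to 0.17) and Nfia from E16.5 to PND0 (-0.0581 to 0.12).

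The count over all genes moved by more than 1.5 times. At E12.5 it was 3, and 30 by DESeq2, 52 with all 32 libraries and 6 with the replicate block. At E14.5 it was 94, and 146 without a filter and 4 with all 32 libraries. At E16.5 it was 8, and 233 without a filter, 150 by DESeq2, 3 with all 32 libraries, 5 with the replicate block and 4 with the sex-linked covariate. At PND0 it was 250, and 1091 without a filter, 921 by DESeq2, 1205 with all 32 libraries, 2 with the CT010467.1 covariate and 46 with length offsets. For the interaction it was 5, and 11 without a filter, 346 by DESeq2, 0 with the replicate block and 198 with the CT010467.1 covariate. Leaving out 1 library gave 1 to 5, 52 to 155, 3 to 14, 35 to 263 and 0 to 797.

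Replicate numbers did not pair the libraries: the correlation of deviations between same-numbered WT and KO libraries ran from -0.28 to 0.30. The replicate block called 131 genes at E14.5 and 356 at PND0 and 0 of the 10 genes in any genotype comparison. Under it Gja1 lost its call from E14.5 to E16.5 (adjusted p = 0.121) and passed from E12.5 to PND0 (0.0115), and Zbtb20 at E14.5 passed (0.0493). Depth limits Gfap and S100b before E16.5.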
